A study of Mus musculus with 48 samples.

Results

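The arrays described here are 24 cultures of AECII, alveolar epithelial type II cells isolated from mouse lung, sorted by how much Marco they contained. Marco encodes a scavenger receptor that is typical of alveolar macrophages, so its level was used as a measure of macrophage RNA in an epithelial culture. Within each of the 3 treatment groups the 8 arrays were ranked by the Marco probe, and the 4 highest (12 in all) were compared with the 4 lowest (12 in all). These 24 arrays were taken from a series of 48, of which the other 24 came from PASMC, pulmonary artery smooth muscle cells. The arrays were thus chosen by the measured level of Marco, so every difference between high and low Marco arrays is given below as a description, in which limma's p serves only as a threshold for counting genes and not as a test.

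All cells came from C57Bl/6J mice, 8 in number for the whole study. AECII were plated in 24-well plates at 300000 cells per well in medium with 10% fetal bovine serum, and treatment began 24 h after isolation. In the AECII.18mg group (n = 8) the medium held 15% ECVE, an extract made from electronic cigarette vapour, for 24 h, and the e-liquid contained 18 mg/ml nicotine. The AECII.0mg group (n = 8) received the same percentage of extract from an e-liquid with 0 mg/ml nicotine, and the AECII.Ctrl group (n = 8) was the control, labelled room air, with the same cells and medium. Total RNA was labelled with Cy3 and hybridised to 1-colour Agilent arrays, and all values below are the deposited log2 values. The labels number the replicates but do not say which mouse gave which array, so arrays were treated as independent, and every p-value below measures only the spread between these arrays, which may be technical.

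Alveolar macrophages are the resident phagocytes of the air spaces and take up particles, surfactant lipid and microbes. Their identity depends on GM-CSF, a cytokine made largely by type II cells, which acts through the receptor chains encoded by Csf2ra and Csf2rb and through the nuclear receptor gene Pparg. Marco recognises inhaled particles and bacteria, and alveolar macrophages also carry the integrin chain Itgax and the lectin Siglecf. Macrophages are commonly carried along when lung tissue is digested to isolate epithelial cells.

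The transcription factor PU.1, the product of Spi1, binds sites with a core of the letters GAGGAAG in many myeloid promoters, and this word was searched for on both strands of the 250 bases upstream of each gene start (RefSeq, GRCm38.p6). It was the single motif searched. The word or its reverse complement CTTCCTC was present in 10.4% of 27025 promoters, in 10.7% of the 11516 promoters of genes tested in AECII, and in 7 of the 38 promoters available for macrophage genes tested (18.4%). The promoter of Marco is shown because Marco ordered the arrays, and those of Trem2, Laptm5 and Mrc1 because they hold the word and their genes followed Marco most closely among such macrophage genes. Capitals mark the word. Relative to the gene start it began at base -146 in Marco (chr1:120505025-120505274, minus strand), -41 in Trem2 (chr17:48346151-48346400, plus strand) and -39 in Laptm5 (chr4:130913066-130913315, plus strand). In Mrc1 (chr2:14229164-14229413, plus strand) it began at bases -168 and -36. A match is a description of the letters and not a measured binding site.
Marco: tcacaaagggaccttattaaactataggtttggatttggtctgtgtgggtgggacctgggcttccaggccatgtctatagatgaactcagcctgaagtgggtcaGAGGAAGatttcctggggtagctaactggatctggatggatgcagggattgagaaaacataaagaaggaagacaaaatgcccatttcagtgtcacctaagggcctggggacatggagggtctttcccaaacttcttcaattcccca
Trem2: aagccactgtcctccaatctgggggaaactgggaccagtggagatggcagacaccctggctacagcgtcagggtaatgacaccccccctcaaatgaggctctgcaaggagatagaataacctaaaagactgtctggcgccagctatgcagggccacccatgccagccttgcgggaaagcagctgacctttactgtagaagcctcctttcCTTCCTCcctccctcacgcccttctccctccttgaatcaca
Laptm5: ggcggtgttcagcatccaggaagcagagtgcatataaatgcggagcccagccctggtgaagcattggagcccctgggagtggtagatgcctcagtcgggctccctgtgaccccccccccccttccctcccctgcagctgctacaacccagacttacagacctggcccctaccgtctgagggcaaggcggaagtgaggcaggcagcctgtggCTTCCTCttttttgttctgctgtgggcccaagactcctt
Mrc1: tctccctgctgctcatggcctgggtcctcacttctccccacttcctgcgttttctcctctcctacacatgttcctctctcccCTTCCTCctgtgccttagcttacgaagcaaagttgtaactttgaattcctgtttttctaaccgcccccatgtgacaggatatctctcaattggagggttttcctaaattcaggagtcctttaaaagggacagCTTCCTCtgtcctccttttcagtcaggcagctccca

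Marco was read by 1 probe. In AECII.Ctrl the high arrays read 9.24, 7.89, 7.85 and 7.56 and the low arrays 7.04, 6.72, 6.27 and 5.97. In AECII.0mg the high arrays read 9.46, 7.92, 7.54 and 7.48 and the low arrays 7.08, 7.01, 6.97 and 5.51. In AECII.18mg the high arrays read 8.97, 8.29, 8.05 and 7.71 and the low arrays 7.33, 7.13, 7.07 and 6.26. The highest array of each group lay apart from the next, AECII.Ctrl replicate 8, AECII.0mg replicate 3 and, by a smaller step, AECII.18mg replicate 3. In AECII.0mg and AECII.18mg the lowest array lay apart as well, at 5.51 under 6.97 and at 6.26 under 7.07. The arrays just inside and just outside the division lay close together, at 7.56 and 7.04 in AECII.Ctrl, 7.48 and 7.08 in AECII.0mg, and 7.71 and 7.33 in AECII.18mg, so the division separates neighbouring arrays by less than the range within either side. Over the 12 and 12 arrays the difference was 1.47 ± 0.25 (SE), a value that the ranking itself produced.

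**Figure D1:**
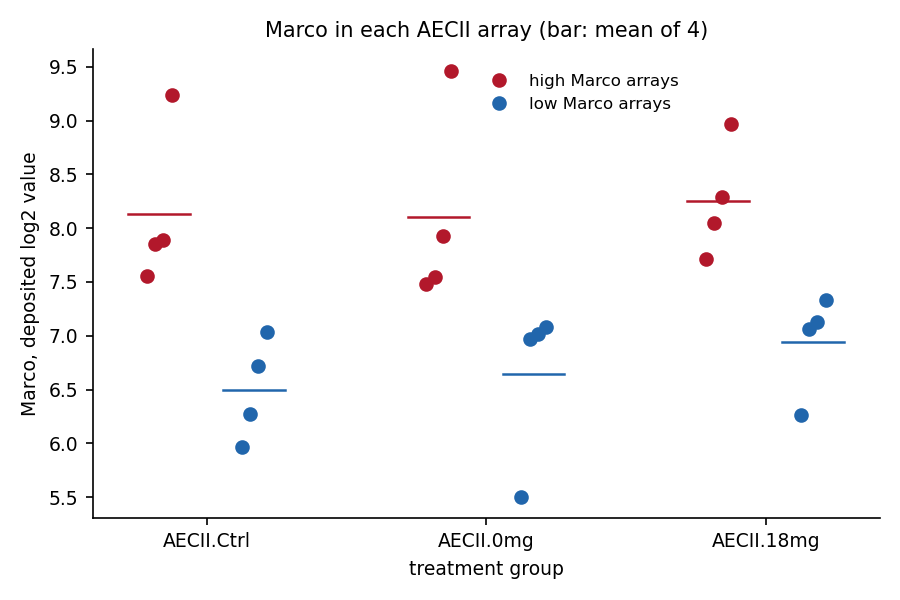
Deposited log2 value of Marco (vertical axis) in each of the 8 arrays of AECII.Ctrl, AECII.0mg and AECII.18mg (horizontal axis), with high arrays in red, low arrays in blue and a bar at the mean of each 4. The highest array of each group reads 9.24, 9.46 and 8.97 and the lowest 5.97, 5.51 and 6.26, while the lowest high array and the highest low array lie close together.

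Ranks were taken within groups, so the level of Marco between treatments was free to differ and could be tested. Marco averaged 7.60 ± 0.84 in AECII.18mg arrays and 7.32 ± 1.05 in AECII.Ctrl arrays (SD, n = 8 each), a difference of 0.28 ± 0.48 (SE, two-sided exact permutation p = 0.557, adjusted p = 0.919 over 3 pairs). It averaged 7.37 ± 1.11 in AECII.0mg arrays (SD, n = 8), 0.06 ± 0.54 above AECII.Ctrl (exact permutation p = 0.919, adjusted p = 0.919). AECII.18mg arrays lay 0.23 ± 0.49 above AECII.0mg arrays (exact permutation p = 0.653, adjusted p = 0.919). In all 3 pairs the ranges of the groups overlapped, and the difference was smaller than the spread within a group. Leaving out AECII arrays in turn moved these differences across 0 for AECII.0mg against AECII.Ctrl (-0.24 to 0.33) and for AECII.18mg against AECII.0mg (-0.04 to 0.53).

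The label of the cultures was checked against marker genes. Sftpc, which encodes surfactant protein C, the defining product of type II cells, read 13.97 to 14.86 in the high arrays (median 14.29) and 13.80 to 14.59 in the low arrays (median 14.32). The lung epithelial transcription factor Nkx2-1 read 8.39 to 9.20 in the high arrays and 7.82 to 9.26 in the low arrays, and Epcam, an epithelial adhesion molecule, 9.12 to 9.93 in the high arrays and 8.22 to 9.50 in the low arrays. Markers of other cells were also strong in every array, including the club cell gene Scgb1a1 (15.59 to 15.89 in the high arrays, 15.65 to 15.83 in the low arrays), the mesothelial gene Msln (13.92 to 14.55 in the high arrays, 14.10 to 14.26 in the low arrays) and the smooth muscle gene Acta2 (10.93 to 12.83 in the high arrays, 11.11 to 12.67 in the low arrays). Slc34a2, a phosphate carrier of type II cells, stayed at the dim end in both sets (1.82 to 3.54 in the high arrays, 1.75 to 4.12 in the low arrays). Scgb1a1 lay near 15.89, the highest value of every array, so it had little room to differ between the sets. Sftpc, Scgb1a1, Msln and Acta2 were thus bright in every array on both sides of the division, and Slc34a2 was not. With RNA from whole wells, fewer macrophages in a well and less of these RNAs per macrophage cannot be told apart.

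Most macrophage genes read higher in the high Marco arrays. Of 59 further genes in 2 lists, 1 of alveolar macrophage markers and 1 of general macrophage and myeloid markers, 52 passed the filter on dim genes, 4 did not and 3 had no probe that could be named. High minus low was positive for 44 of the 52 genes and positive in all 3 treatment groups for 34. Over all 14476 genes tested, 18.8% were positive in all 3 groups and 17% were negative in all 3. Being positive in all 3 groups was not particular to macrophage genes. It also held for 8 of 12 general epithelial, 7 of 11 transitional epithelial and 6 of 11 airway genes tested. Those 3 epithelial lists had median differences of 0.13, 0.08 and 0.27. The median difference was 0.43 over the 19 alveolar macrophage genes tested and 0.57 over the 33 general macrophage genes tested, against 0.01 over all genes tested. Without the highest Marco array of each group these medians were 0.21 and 0.27. Within AECII.0mg alone the alveolar median was 0.19. The mean log2 value over the alveolar list ran from 6.14 to 7.41 in the high arrays (median 6.81) and from 5.89 to 6.90 in the low arrays (median 6.45). For the general list it ran from 5.88 to 7.28 in the high arrays (median 6.59) and from 5.72 to 6.60 in the low arrays (median 6.16). The sets overlapped for both lists. Within AECII.0mg the mean over 11 airway epithelial genes did not overlap, at 6.96 to 7.17 in the high arrays and 6.61 to 6.92 in the low arrays. In AECII.Ctrl and AECII.18mg it did overlap. Means over the transitional epithelial and smooth muscle lists were also apart in 1 group each. Transitional epithelial genes read 12.59 to 12.63 in the high and 12.29 to 12.56 in the low AECII.Ctrl arrays. Smooth muscle genes read 8.54 to 9.23 in the high and 8.06 to 8.34 in the low AECII.18mg arrays. Ranking the arrays by the alveolar list in place of Marco kept 8 of the 12 high arrays, and ranking by the general list kept 9 of the 12.

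The arrays with the most and the least Marco also stood out for many macrophage genes. On the array with the most Marco in its group, 38 of the 52 macrophage genes also had their highest value in AECII.Ctrl, 34 in AECII.0mg and 29 in AECII.18mg, against 18%, 12.8% and 12.6% of all genes tested. For 26 of the 52 this held in all 3 groups, against 1.35% of all genes. Those 26 genes include Chil3, Siglecf, Ear2, Itgax, Mrc1, Tyrobp, Ctss, Trem2 and Cd52. On the array with the least Marco, 10 of the 52 had their lowest value in all 3 groups, against 0.926% of all genes, among them Itgax, Ccl6, Fcer1g, Laptm5 and Clec7a. Between these ends the order was looser. Itgax, for example, read 8.76, 7.63, 7.53 and 6.51 in the high AECII.Ctrl arrays and 7.04, 6.55, 7.03 and 6.08 in the low ones, in falling order of Marco, so the high array with the least Marco lay below 3 of the 4 low arrays.

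The deposited values were also fitted as a slope on Marco over the 24 arrays with treatment as a covariate, in log2 units of the gene per log2 unit of Marco, which uses the whole range and not a division at rank 4. At a Benjamini-Hochberg adjusted p of 0.05 in limma, used here as a threshold for naming genes and not as a test, 125 of 14476 genes had a positive slope (0.863%) and 87 a negative slope (0.601%), 1.46% in all. The 125 included 25 of the 52 macrophage genes, 9 of 19 in the alveolar list and 16 of 33 in the general list, and no macrophage gene was among the 87. The median slope was 0.39 for the alveolar list and 0.40 for the general list, against -0.002 over all genes. The 3 arrays with the most Marco carried much of this. Without them 34 genes passed with a positive and 80 with a negative slope, so negative slopes then outnumbered positive ones. Of the 34, 2 were macrophage genes, Itgax (slope 0.69 ± 0.15, SE) and Ccl6 (0.62 ± 0.12, SE). With the replicate number as a block 50 positive and 34 negative slopes passed, 13 of them macrophage genes, and with runs of 8 accessions as a block 63 and 24, 18 of them macrophage genes. The slopes themselves kept their direction for all 25 genes, between 0.18 and 0.96 with all arrays and between 0.16 and 0.89 over the 21 arrays without those 3.

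**Figure D2:**
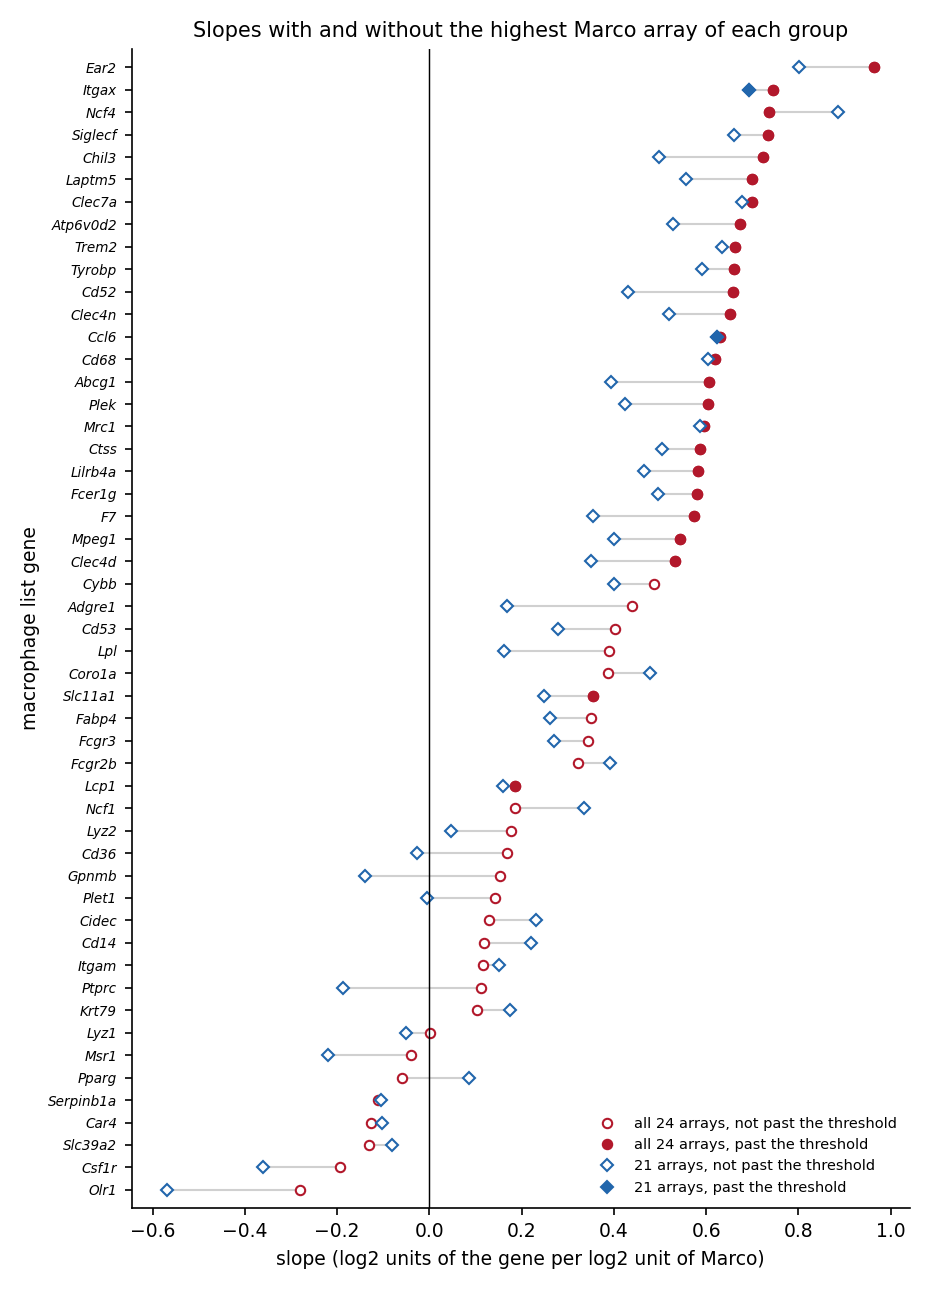
Slope on Marco (horizontal axis, log2 units of the gene per log2 unit of Marco) for the macrophage list genes (vertical axis) over all 24 AECII arrays in red circles and over 21 arrays without the highest Marco array of each group in blue diamonds, filled where the gene passed the adjusted p threshold. All 25 genes past it with all arrays keep a positive slope without the 3 arrays, and Itgax and Ccl6 alone stay past it.

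Surface proteins that mark alveolar macrophages were among the genes that followed Marco. Itgax, the CD11c integrin chain, had a median of 7.57 in the high arrays (6.42 to 8.76) and 6.75 in the low arrays (5.20 to 7.34). Its difference was 0.89 ± 0.29 (SE), its slope 0.75 ± 0.10 and its correlation with Marco, after each treatment mean was removed, r = 0.86 and rho = 0.73 over 24 arrays. Without the 2 arrays farthest from the median of Marco, r was 0.79. Siglecf, a sialic acid binding lectin, had a median of 5.14 in the high arrays (2.86 to 6.19) and 4.06 in the low arrays (2.22 to 5.33), with a slope of 0.73 ± 0.16. Mrc1, the mannose receptor, had a median of 5.88 in the high arrays (4.48 to 6.74) and 5.00 in the low arrays (3.81 to 6.10), with a slope of 0.60 ± 0.12. For all 3 genes the 2 sets overlapped while the medians stood apart. Correlations given here are descriptions, since every point shares the same normalisation and the genes come from the same 24 arrays.

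Among secreted products, Chil3, a chitinase-like protein released by alveolar macrophages, read 10.63, 9.51, 9.01 and 7.60 in the high AECII.Ctrl arrays and 8.89, 8.36, 9.03 and 7.91 in the low ones. In AECII.0mg it read 10.72, 9.16, 8.12 and 9.20 in the high arrays and 9.67, 8.27, 9.10 and 7.40 in the low ones, and in AECII.18mg 10.46, 9.02, 8.06 and 9.57 in the high arrays and 9.14, 8.91, 9.09 and 7.33 in the low ones. Its highest value in each group fell on the array with the most Marco, and the remaining high and low arrays were interleaved. Ear2, an eosinophil-associated ribonuclease, had the steepest slope of the 2 lists at 0.96 ± 0.16, with a median of 7.23 in the high arrays (5.06 to 8.43) and 5.43 in the low arrays (4.69 to 7.50). Its relatives Ear10 and Rnase2a, which were chosen after their values were seen, had slopes of 1.00 ± 0.15 and 0.83 ± 0.16, and probes of this closely related family may share signal.

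Chemokines differed in whether they followed. Ccl6, a CC chemokine of myeloid cells, had the closest correlation with Marco among the list genes (r = 0.88, rho = 0.67), with a median of 10.35 in the high arrays (9.83 to 11.53) and 10.01 in the low arrays (8.55 to 10.55). Ccl9 had a slope of 0.56 ± 0.11. Ccl5, which recruits T cells and monocytes, had a median of 5.87 in the high arrays (5.03 to 6.86) and 5.05 in the low arrays (3.85 to 5.64) and a slope of 0.51 ± 0.10. Ccl2, Ccl3 and Cxcl1 had slopes of -0.16 ± 0.08, 0.15 ± 0.14 and 0.04 ± 0.13 and did not pass. Among cytokines, Tnf (0.04 ± 0.09), Il1b (0.12 ± 0.11) and Spp1 (0.17 ± 0.17) did not pass either. Of 17 genes tested in the cytokine and chemokine list, 4 had slopes past the threshold, all positive: Ccl6, Ccl9, Ccl5 and Ptgs2.

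Of 11 genes tested in the list for the GM-CSF and M-CSF axis, 3 had slopes past the threshold, all positive: Csf2rb, Csf2ra and Irf8. Csf2rb, the shared signalling chain, had a median of 7.05 in the high arrays (5.70 to 8.20) and 6.28 in the low arrays (5.05 to 6.75), a slope of 0.69 ± 0.09 and r = 0.85. Csf2ra, the ligand-binding chain, had a median of 8.93 in the high arrays (8.24 to 9.40) and 8.46 in the low arrays (8.24 to 8.85), with a slope of 0.27 ± 0.05. The ligand gene Csf2 had a slope of 0.19 ± 0.13 and did not pass. Csf1r, the M-CSF receptor, ran the other way without passing, at 8.53 to 9.55 in the high arrays and 8.61 to 9.81 in the low arrays, a slope of -0.19 ± 0.07 and r = -0.51. Of the transcription factors of this axis, Irf8 had a slope of 0.32 ± 0.07 and passed, while Pparg (-0.06 ± 0.06) and Cebpb (-0.003 ± 0.065) did not. Spi1 was under the filter, at 1.94 to 4.05 in the high arrays and 1.68 to 3.33 in the low arrays. Its probe was also dim, at 2.90, 3.84 and 1.90, in the PASMC arrays with the most Marco (13.07, 12.87 and 12.63).

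**Figure D3:**
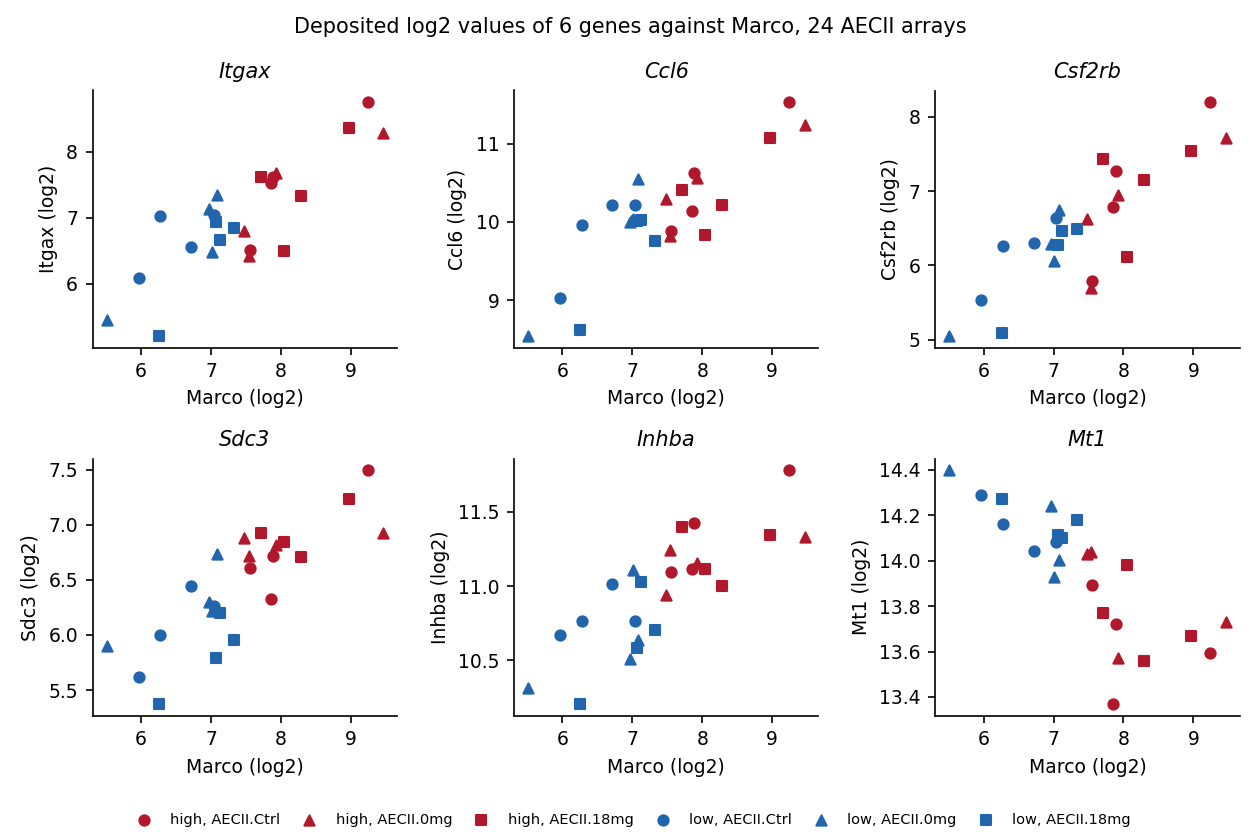
Deposited log2 values of Itgax, Ccl6, Csf2rb, Sdc3, Inhba and Mt1 (vertical axes) against Marco (horizontal axes) in the 24 AECII arrays, high arrays in red and low arrays in blue, with a marker shape per treatment. The first 5 genes lie higher where Marco is higher (r = 0.86, 0.88, 0.85, 0.86 and 0.85) and Mt1 lies lower (r = -0.82).

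Of the general list, 16 genes passed on the slope. Tyrobp and Fcer1g, adaptor chains that carry activating signals from myeloid receptors, had slopes of 0.66 ± 0.12 and 0.58 ± 0.09. Trem2, a lipid-sensing receptor that signals through Tyrobp, had a median of 6.44 in the high arrays (5.22 to 7.21) and 5.44 in the low arrays (4.25 to 6.60) and a slope of 0.66 ± 0.10. The C-type lectins Clec7a, Clec4n and Clec4d, which bind fungal and bacterial carbohydrates, had slopes of 0.70 ± 0.12, 0.65 ± 0.12 and 0.53 ± 0.12. Laptm5, a lysosomal membrane protein of blood cells, had a slope of 0.70 ± 0.11 and Ctss, the cathepsin that trims class II molecules, 0.59 ± 0.11. Cd68, Cd52, Plek, Mpeg1, Lilrb4a, Ncf4, Slc11a1 and Lcp1 also passed. The Toll-like receptor genes Tlr2 (-0.01 ± 0.08) and Tlr4 (-0.11 ± 0.07) and the scavenger receptor genes Msr1 (-0.04 ± 0.12) and Cd36 (0.17 ± 0.13) did not.

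Of 17 genes tested in the list for macrophage lipid handling and lysosomes, 5 had slopes past the threshold, all positive: Abcg1, Lipa, Acp5, Ctsk and Ctss. Abcg1, which exports cholesterol, and Atp6v0d2, a proton pump subunit of macrophages and osteoclasts, had slopes of 0.61 ± 0.10 and 0.67 ± 0.10. Lysosomal genes outside this list also passed with negative slopes, so the direction was not shared by lysosomal genes at large. Picked out after their values were seen, they included the proton pump genes Atp6ap2 (-0.17 ± 0.03) and Atp6v0a1 (-0.16 ± 0.04). Arsa (-0.21 ± 0.04), Ctns (-0.25 ± 0.05) and Scpep1 (-0.16 ± 0.04) were others. Lipa, the lysosomal acid lipase, had a median of 7.41 in the high arrays (6.59 to 8.02) and 6.95 in the low arrays (6.61 to 7.28), with a slope of 0.29 ± 0.05. Fabp4 (0.35 ± 0.09) and Lpl (0.39 ± 0.11) were positive but did not pass, and Plin2 (0.05 ± 0.03) and Npc2 (-0.08 ± 0.03) did not either. Genes that make leukotrienes and thromboxane, picked out after their values were seen, included Alox5 (0.67 ± 0.11), Alox5ap (0.64 ± 0.10) and Tbxas1 (0.73 ± 0.14).

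The other 27 macrophage genes tested did not pass on the slope. Lyz1 had a slope of 0.00 ± 0.12 and Lyz2, the lysozyme gene shared by macrophages and type II cells, 0.18 ± 0.08. Car4 (-0.13 ± 0.09), Krt79 (0.10 ± 0.07), Plet1 (0.14 ± 0.07), Gpnmb (0.15 ± 0.08) and Itgam (0.12 ± 0.16) did not pass. Olr1, a receptor for oxidised lipoprotein, read lower in the high arrays (median 3.94, 2.66 to 5.24) than in the low arrays (median 4.74, 3.67 to 5.54), with a slope of -0.28 ± 0.15. Ptprc, the pan-leukocyte gene CD45, stayed near the dim end in both sets (1.96 to 4.26 in the high arrays, 2.48 to 4.11 in the low arrays). The Ptprc probe also read 4.74, 2.82 and 3.60 in the PASMC arrays with the most Marco (13.07, 12.87 and 12.63). Tyrobp read 10.85, 10.51 and 10.46 in those arrays, so a dim Ptprc value says little about leukocyte content.

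Other blood cell markers were checked, since several cell types could be carried along with macrophages. In the list for interstitial macrophages and monocytes 0 of 9 genes passed on the slope, with a median difference of 0.19. C1qa had a median of 3.94 in the high arrays (2.00 to 4.89) and 3.46 in the low arrays (2.54 to 4.17), while Cx3cr1 and Cd163 were under the filter. Among class II genes 0 of 7 passed, and Cd74, which type II cells also express, had a slope of -0.07 ± 0.11. For lymphocytes 0 of 9 passed, with Cd3e at 6.00 in the high arrays and 6.08 in the low arrays (medians). Cd3e also read 5.69 to 6.64 over the PASMC arrays, so this level was not particular to the AECII cultures. Among 8 neutrophil genes 1 passed, Ltf (0.38 ± 0.08), and S100a8 was lower in the high arrays (median 7.93, 7.22 to 9.12) than in the low arrays (median 9.24, 6.80 to 10.57). In the dendritic cell list 1 of 5 passed, Ccr7 (0.45 ± 0.11), and Flt3, Xcr1 and Itgae were under the filter.

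Among markers of structural cells, 2 lists lay farthest from the median of all genes. Smooth muscle markers had a median difference of 0.60 over 7 genes, 6 of them positive and 5 positive in all 3 groups. Acta2 had a median of 12.03 in the high arrays and 11.26 in the low arrays (slope 0.45 ± 0.11), and Actg2 6.71 and 5.96 (slope 0.55 ± 0.13), and both passed on the slope. The Acta2 call was kept in 9 of 33 alternative settings and lost in 24, with its direction unchanged. Mesothelial markers had a median difference of -0.41 over 6 genes, 5 of them negative in all 3 groups, with Upk3b at a median of 7.45 in the high arrays and 8.26 in the low arrays, and 0 passed. Alveolar type II markers had a median difference of 0.10 over 15 genes and alveolar type I markers 0.01 over 14, and 0 of either passed. Smooth muscle markers thus ran higher and mesothelial markers lower on balance in the high arrays, and the part of these cells in the differences that follow was not tested.

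**Figure D4:**
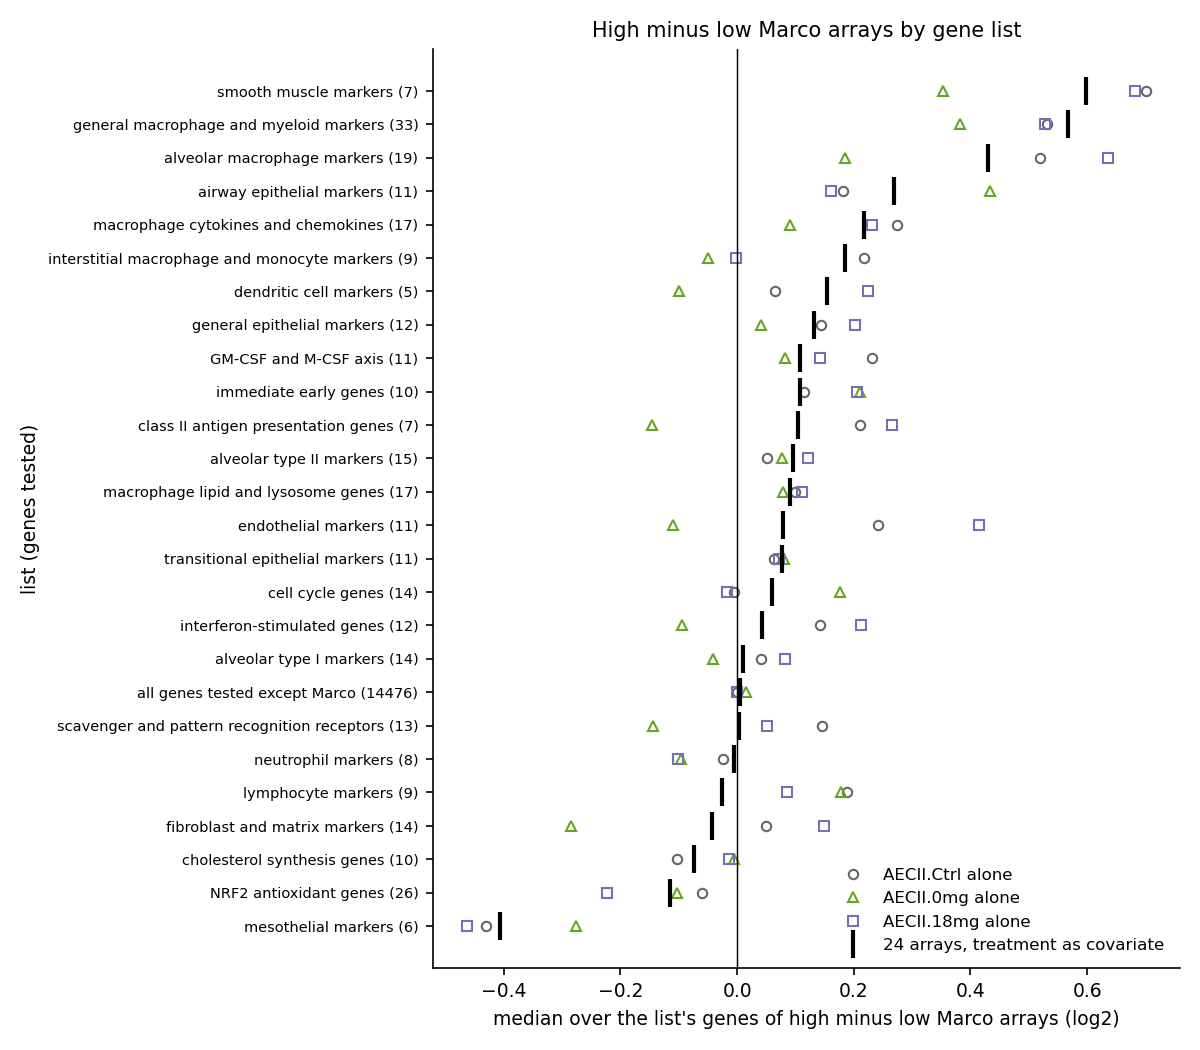
Median over the tested genes (number in brackets) of each list with at least 5 of high minus low Marco arrays on the log2 scale (horizontal axis), with a bar for all 24 arrays and open markers for each treatment group alone. The general and alveolar macrophage lists (0.57 and 0.43) and the smooth muscle list (0.60) lie highest, the mesothelial list (-0.41) lies lowest, and all genes tested lie at 0.01.

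The direct comparison of 12 high with 12 low arrays passed the threshold for 26 of 14476 genes (0.18%), 10 higher (0.0691%) and 16 lower (0.111%). None of the 52 macrophage genes was among them in limma, and 23 of them were higher at an unadjusted p under 0.05, as were 797 of all 14476 genes. The 10 higher genes were Selplg, Grap, Ccl5, Ccdc18, Pou2f2, Ctsw, Sdc3, Inhba, Ccn2 and Fstl3. Selplg, the P-selectin ligand of leukocytes, had a median of 4.94 in the high arrays (4.01 to 5.66) and 3.68 in the low arrays (3.18 to 4.61), a difference of 1.03 ± 0.21. Ctsw, a cathepsin of cytotoxic lymphocytes, had a median of 7.58 in the high arrays (6.78 to 7.72) and 6.58 in the low arrays (5.84 to 7.62), a difference of 0.81 ± 0.17. Sdc3, a heparan sulphate proteoglycan, had a median of 6.83 in the high arrays (6.32 to 7.49) and 6.10 in the low arrays (5.37 to 6.73), a difference of 0.78 ± 0.14. In each case the 2 sets overlapped, and no gene had every high array above every low array in all 3 groups. That pattern held in at least 1 group for 4.48% of all genes, and its opposite for 4.04%. The first held for 5 of the 52 macrophage genes, Adgre1, Coro1a, Fcgr2b, Lcp1 and Ncf4.

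Among the higher genes, Inhba encodes the subunit of activin A, a secreted signalling protein. It read 11.78, 11.43, 11.12 and 11.10 in the high AECII.Ctrl arrays and 10.77, 11.01, 10.76 and 10.67 in the low ones, and over all groups its median was 11.20 in the high arrays and 10.69 in the low arrays, a difference of 0.55 ± 0.10. Ccn2, connective tissue growth factor, had medians of 14.70 and 14.36, a difference of 0.34 ± 0.07, and Fstl3, an inhibitor that binds activin, 10.12 and 9.76, also 0.34 ± 0.07, in each case with the high arrays first. Inhba, Palld, an actin bundling protein, and Krt17, a keratin of activated epithelium, were among the 10 genes best correlated with Marco (r = 0.85, 0.87 and 0.82). The others were Tmcc3 (0.88), Ccl6 (0.88), Sdc3 (0.86), Itgax (0.86), Csf2rb (0.85), Gm6522 (0.83) and Plek (0.82), of which Ccl6, Itgax and Plek belong to the macrophage lists.

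The 16 lower genes included none from the macrophage lists. Armcx1 and Sco2, which encode a mitochondrial outer membrane protein and an assembly factor of cytochrome c oxidase, were the 2 genes whose high arrays all lay below the low arrays in every group (0.0138% of all genes). Armcx1 ranged from 5.81 to 6.34 in the high arrays and from 6.40 to 6.82 in the low arrays, a difference of -0.50 ± 0.07, and its sets did not overlap over all 24 arrays. Sco2 ranged from 8.91 to 9.56 in the high arrays and from 9.48 to 9.70 in the low arrays, a difference of -0.31 ± 0.06. Mt1, a metallothionein that binds zinc and copper, had a median of 13.73 in the high arrays (13.37 to 14.04) and 14.14 in the low arrays (13.93 to 14.40), a difference of -0.41 ± 0.08, and Mt2 had a slope of -0.24 ± 0.05. Mmp13, a collagenase, had the largest difference of the 16 at -1.02 ± 0.21, with medians of 5.61 in the high arrays and 6.77 in the low arrays. Klf4, a transcription factor of epithelial differentiation, differed by -0.53 ± 0.11, and Oasl1, an interferon-induced gene, by -0.91 ± 0.16.

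Gfpt2, which makes glucosamine 6-phosphate, had a median of 7.63 in the high arrays and 8.30 in the low arrays, a difference of -0.73 ± 0.13. Gnpda1, which breaks glucosamine 6-phosphate down, had medians of 8.88 and 9.32, a difference of -0.47 ± 0.08, with the high arrays first. Uap1l1, named for its likeness to a hexosamine pyrophosphorylase, had the most negative correlation of all genes tested (r = -0.89, rho = -0.84). Fabp3, a fatty acid carrier (r = -0.86), Serp2 (r = -0.84), Ppfibp2 (r = -0.83) and Mt1 (r = -0.82) came next. The remaining lower genes were Lrrn4cl, Tnfrsf26, Gcnt1, Bicdl1, Coprs, AI413582, Rreb1 and Grn, with differences from -0.28 to -0.97.

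The PASMC arrays, which the ranking did not use, were fitted on Marco in the same way. Per the labels these cells were isolated with iron particles, kept in smooth muscle medium with 15% serum and passaged. They form the groups PASMC.18mg and PASMC.0mg, each given 15% ECVE for 24 h from e-liquid with 18 or 0 mg/ml nicotine, and the room air control PASMC.Ctrl (n = 8 each). Marco ranged from 7.24 to 13.07 over the 24 PASMC arrays (median 9.95), against 5.51 to 9.46 over the 24 AECII arrays (median 7.40). In a limma fit of each gene on Marco with treatment as a covariate, added after the data were seen, 175 of 14544 genes rose with Marco (1.2%) and 20 fell (0.138%) at adjusted p under 0.05, 1.34% in all. Among macrophage genes 11 of 19 in the alveolar list and 29 of 33 in the general list rose. Itgax ranged from 2.32 to 8.48 with a slope of 0.98 ± 0.07, Ccl6 from 7.79 to 13.08 with a slope of 0.88 ± 0.04, and Lyz2 from 6.32 to 11.87 with a slope of 0.96 ± 0.03. Csf1r rose in PASMC (0.14 ± 0.03), against a slope of -0.19 ± 0.07 in AECII.

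Of 13598 genes tested in both cell types, 116 passed with a positive slope in AECII and 170 in PASMC, and 62 did in both, which is 53.4% of the AECII genes and 36.5% of the PASMC genes. The share of all genes that passed was 0.853% in AECII and 1.25% in PASMC. All 25 macrophage genes past the threshold in AECII were among the 62. The genes outside the macrophage lists divided. Csf2rb (0.63 ± 0.05), Alox5ap (0.50 ± 0.04), Vav1 (0.70 ± 0.06) and Itgb2 (0.71 ± 0.05) rose with Marco in PASMC as well. Sdc3, Inhba, Ccl5, Krt17, Palld, Tmcc3 and Acta2 did not pass there, with slopes of 0.04, 0.12, 0.03, 0.03, 0.09, 0.10 and 0.08. Sdc3, Inhba and Acta2 read higher in PASMC arrays (8.88 to 10.26, 12.28 to 14.13 and 14.33 to 15.46) than in any AECII array. Their AECII ranges were 5.37 to 7.49, 10.20 to 11.78 and 10.93 to 12.83. Krt17 read lower in PASMC (1.78 to 5.94) than in AECII (6.77 to 8.82), and the ranges of Ccl5, Palld and Tmcc3 overlapped. The part of these levels in the slopes was not tested. Of the same 13598 genes, 83 were lower with Marco in AECII and 20 in PASMC, and no gene was lower in both. With so few genes on either side, the lack of overlap says little about the lower genes. Mt1 had a PASMC slope of -0.03 ± 0.04. A passing slope in AECII and a failing slope in PASMC do not show that the slopes differ, and that difference was not tested. In PASMC the type II cell genes Sftpc (1.72 to 11.82, slope 1.49 ± 0.27) and Sftpb (1.70 to 9.44, slope 0.99 ± 0.20) also rose with Marco, and their part in the other slopes there was not tested.

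**Figure D5:**
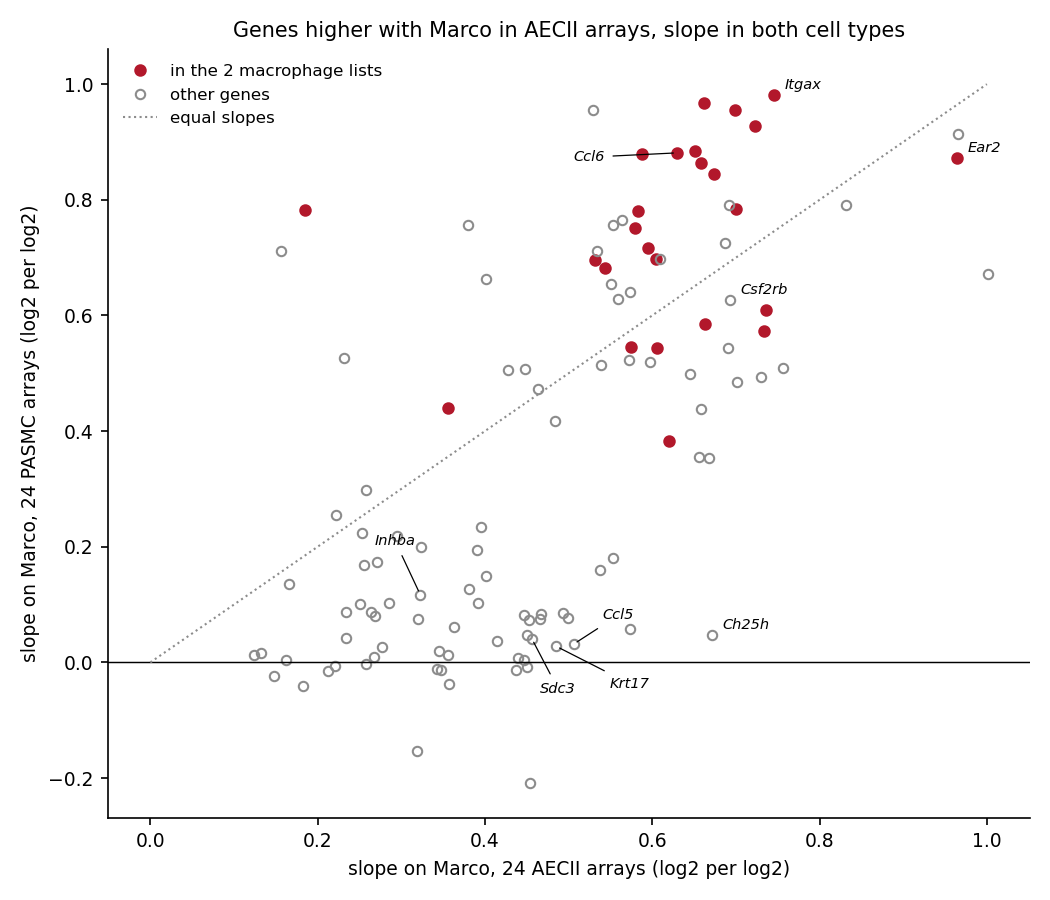
Slope on Marco in 24 AECII arrays (horizontal axis) against the slope in 24 PASMC arrays (vertical axis), both in log2 units per log2 unit, for the 116 genes with a positive slope past the threshold in AECII that were tested in both cell types. The 25 macrophage list genes (red) all have positive PASMC slopes, while genes such as Sdc3, Inhba, Ccl5 and Krt17 lie near 0 there.

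The extracts themselves were then compared over all 8 arrays of each group. In limma 0 of 14477 genes passed an adjusted p of 0.05 (0%) for AECII.18mg against AECII.Ctrl, for AECII.0mg against AECII.Ctrl and for AECII.18mg against AECII.0mg, with 341, 480 and 447 genes at an unadjusted p under 0.05. None of the 52 macrophage genes was among those in any of the 3 comparisons. Itgax averaged 6.93 ± 0.92 in AECII.18mg arrays, 6.95 ± 0.87 in AECII.0mg arrays and 7.14 ± 0.84 in AECII.Ctrl arrays (SD, n = 8 each), and Chil3 8.95 ± 0.94, 8.95 ± 1.02 and 8.87 ± 0.95 in the same order. Gsta1, a glutathione transferase under the antioxidant regulator NRF2, averaged 13.10 ± 0.29 in AECII.18mg arrays and 12.60 ± 0.26 in AECII.Ctrl arrays, a difference of 0.50 ± 0.13 (SE) that did not pass (limma adjusted p = 1.00). Cbr3, a carbonyl reductase, averaged 11.96 ± 0.26 in AECII.18mg arrays and 11.52 ± 0.25 in AECII.Ctrl arrays, and its difference of 0.44 ± 0.12 (SE) did not pass either (limma adjusted p = 1.00). For both genes the spread within a group was smaller than that of Marco (SD of 0.84 to 1.11).

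Whether the response to extract depended on the division by Marco, used here as the measure of macrophage RNA, was asked by an interaction. It is the response in high arrays minus that in low arrays, with 4 arrays in each cell of the design. In limma 0 of 14477 genes passed for AECII.18mg and 0 for AECII.0mg (0% each), with 336 and 466 genes at an unadjusted p under 0.05, of which 1 and 1 were macrophage genes. The smallest p for the nicotine extract was that of Mpo, a neutrophil granule enzyme, with a difference of responses of 2.00 ± 0.46 (SE, limma adjusted p = 1.00). For the extract without nicotine it was Npb, a neuropeptide, at -1.99 ± 0.36 (SE, limma adjusted p = 0.321). Mpo read 1.90 to 3.95 over the AECII arrays, near the dim end, where array medians were 2.97 to 2.98. Among the extract readouts Nqo1, Hmox1, Gsta1, Cbr3 and Cyp1a1, the differences of responses to the nicotine extract were -0.29 ± 0.54, -0.43 ± 0.89, -0.23 ± 0.26, -0.15 ± 0.25 and 0.09 ± 0.95 (SE), each smaller than its error. On simulated arrays of this design the fit recovered 31 of 100 genes with a true difference of 1 and 2 of 100 with 0.5, with 7 false calls. The simulated noise was independent between genes, so recovery in the real arrays may be lower. Differences of these sizes between high and low Marco arrays would thus mostly be missed with 24 arrays.

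Antioxidant genes are those most often used to read exposure to vapour or smoke. Of 26 NRF2 target genes tested, 3 had a positive high minus low difference and 15 were negative in all 3 groups, with a median of -0.11 and 0 past the threshold. The median slope on Marco was 0.01, opposite in sign, so the direction depended on how Marco entered the fit. Between treatments 26 of the 26 had a positive difference for AECII.18mg against AECII.Ctrl (median 0.25, against 0.01 over all genes) and 25 for AECII.0mg against AECII.Ctrl (median 0.15, against 0.01), and none passed. Ephx1, an epoxide hydrolase, alone passed on the slope (-0.16 ± 0.03), with a median of 11.62 in the high arrays and 11.92 in the low arrays. Cell cycle genes had a median difference of 0.06 over 14 genes and none passed on the slope, with Mki67 at 10.71 in the high arrays and 10.75 in the low arrays (medians).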

How the data were processed

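The deposited files hold 1 table of log2 values for 48 single-colour arrays, made by the authors, and limma is named in the submitters' processing notes without a version. The background correction and normalisation behind these values are not given in the sources used here. Array medians lay between 2.97 and 2.98, so the arrays had been brought to a common distribution before deposit. Of 62976 features, 31465 could be given 1 gene name (29036 through an accession, 2075 through a symbol, 349 through an older symbol and 5 under the name in the annotation) and 31511 could not. Where a gene had several features (6171 of 20738 genes), the brightest on average was used. Genes with a mean above 2.73, the 30th percentile, were kept, which left 14477 genes in AECII arrays. Signal over background per spot is not in the table, so the precision of a value is limited by the number of arrays.

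High and low Marco arrays were set apart by rank within each treatment. Differences, slopes on Marco, extract effects and interactions were fitted with limma 3.58.1 in R 4.3.3, treatment as a covariate, with Benjamini-Hochberg adjustment over all genes. Marco between treatments was tested by exact permutation over all divisions of the arrays (Python 3.11.15, numpy 2.4.6). The difference and the slope are descriptive, since Marco chose the arrays. The members and gene lists were chosen with earlier results of these data known. The genes named are Marco and the macrophage list members, up to 15 genes with the largest difference in each direction among those past the threshold with 1 sign in all 3 groups and a mean above the median feature, the 10 best and 5 most negatively correlated genes, defining markers and 5 extract readouts, and the genes with the smallest p in the extract fits; others are said to be chosen afterwards or belong to a list. On simulated data of 14475 genes the high against low fit recovered 90 of 100 genes changed by 1 and 52 of 100 changed by 0.5, with 8 false calls. The simulated noise was independent between genes and had the spread left after the slope on Marco was fitted. Recovery in the real arrays may therefore be lower. Alternatives included other filters, weights, rankings, blocks and leaving out each array. Promoter sequences came from RefSeq tables for GRCm38.p6.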

Additional observations from a re-analysis of the deposited data

Results flagged for a closer look

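In 258 sets of 8 arrays (86 genes in 3 AECII groups), 4 values stood farther from the rest of their group than Dixon's 95% critical value for the gap over the range allows, and chance alone gives about 1 in 20. Adgre1, the F4/80 receptor of macrophages, read 5.23 in AECII.Ctrl replicate 8, with the next array at 3.27, and this array also had the most Marco of its group. Car4, a carbonic anhydrase, read 5.77 in the same array, with the next at 6.74. Ncf4, a subunit of the phagocyte oxidase, read 2.00 in AECII.Ctrl replicate 7, the array with the least Marco of its group, with the next at 4.19. Msr1, a scavenger receptor, read 3.87 in AECII.0mg replicate 6, the array with the least Marco of its group, with the next at 3.05. The Ncf4 and Msr1 values lie near the dim end, where array lower quartiles were 2.25 and medians 2.97 to 2.98. The 4 flags are fewer than 1 in 20 of the 258 sets.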

How the results depend on the processing

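The count of genes past the threshold between high and low Marco arrays (26) depended most on the processing. It was 63 with a replicate block, 10 with no filter, 52 with the stricter filter, 62 with a trended robust variance and 55 with array weights. It was 74 for the top and bottom 3 arrays, 43 for the top and bottom 2, and 212 with Marco as a continuous value. It was 70 and 111 when arrays were ranked by the alveolar and the general macrophage list, 2 with runs of 8 accessions as a block, and 0 in each treatment group alone. The macrophage genes among them (0) became 3 for the top 3, 3 for the top 2, 25 with Marco continuous, and 14 and 20 under the alveolar and general rankings, which use those genes themselves. The alveolar list median (0.43) became 1.11 for the top 2, 0.82 and 0.85 under those rankings, 0.21 without the highest array of each group and 0.19 in AECII.0mg alone. The general list median (0.57) became 0.27 without those arrays. The slope count (212) was 84 with a replicate block, 87 with accession runs and 114 without the highest array of each group, and its macrophage genes (25) were 13 with the block and 2 without those arrays.

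Leaving out each array gave 7 (without AECII.0mg replicate 6) to 116 (without AECII.0mg replicate 2) genes between high and low arrays, 0 to 1 of them macrophage genes, list medians of 0.34 to 0.56 (alveolar) and 0.45 to 0.61 (general), and 114 to 245 genes on the slope, 17 to 27 of them macrophage genes. Marco differed by -0.24 to 0.33 for AECII.0mg against AECII.Ctrl, by -0.039 to 0.53 for AECII.18mg against AECII.0mg and by 0.09 to 0.56 for AECII.18mg against AECII.Ctrl. The extract and interaction counts stayed at 0 in every setting run. Same-numbered arrays deviated together little on average (mean correlation 0.02 to 0.05), with single pairs up to 0.28. A mean over all genes cannot show whether same-numbered arrays shared a mouse or a batch. Replicate number 8 was in the high set in all 3 groups and number 2 in 0. The 24 genes named by the rule as past the threshold between high and low arrays kept their direction in all settings run. Their calls were less stable. The call was kept in 34 of 41 settings for Sdc3, Oasl1, Armcx1 and AI413582, the most of the 24, and in 9 of 41 for Rreb1, the fewest. It was kept in 10 of 41 for Mmp13, 12 for Ccn2, 13 for Ctsw and Fstl3, 14 for Klf4, and in 13 of 40 for Selplg. Cd3e, Mki67, Nkx2-1 and Cyp1a1, which did not pass, crossed 0 when single arrays were left out. Other Marco probes could not be tried, since 1 probe reads it. The settings without the highest arrays, the general ranking and the alternatives for the slope were chosen after seeing the data.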
